A study of Arabidopsis thaliana with 24 samples.

Results

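The CYP71A and CYP71B genes of Arabidopsis thaliana were followed in roots of 7 day old seedlings. Members were the rows of the authors' table of all genes whose alias or description named a numbered CYP71A or CYP71B gene, with 4 such rows left out by the rule, which gave 49 of 33602 genes, 13 of CYP71A and 36 of CYP71B. The study asked what loss or altered placement of POPEYE (PYE), a bHLH regulator that acts in roots short of iron, does to root gene expression. Each of 8 groups held 3 samples, and 7 of the groups were iron-deficient: seedlings spent 4 days on medium with iron and then 3 days without FeEDTA and with 300 µM ferrozine, a chelator of ferrous iron. These 7 were the mutant pye-1 (PYE in the sample labels, pye-1 in the series design), the lines PPL, SHR23, PEP45, WER13 and WER65, and wild type. For GFP the labels give localization codes, V-EN-C-EP for PPL, V-EN for SHR23, C-EN-V for PEP45, EP-C for WER13 and EP for WER65. They do not spell out these codes or state whether a line also carries the pye-1 allele. The last group was wild type kept on 0.1 mM FeEDTA throughout.

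Cytochrome P450 enzymes are heme proteins that insert oxygen into small molecules, with electrons passed on by an NADPH-dependent reductase, so each enzyme molecule holds an iron atom. CYP71 is a large plant family of specialized metabolism whose A and B subfamilies grew by tandem duplication, and relatives in both subfamilies make the indole phytoalexin camalexin. Most members have no established substrate. Among those that do, CYP71B6 turns indole-3-acetonitrile into indole-3-carbaldehyde and indole-3-carboxylic acid, and CYP71B31 oxidizes linalool in flowers. CYP71A27 has been tied to camalexin made by roots exposed to beneficial bacteria.

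Values are RPKM, reads scaled to gene length and library size, deposited as 1 mean per group. No spread between replicates can be given, and "rose" and "fell" are used only of genes that the authors' deposited table for the comparison lists, at a q-value under 0.05. Judged from the spacing of low RPKM values, the libraries held 14834475 to 24011366 effective reads. The PYE transcript stood at 20.6 RPKM in pye-1, so reads from PYE were not absent in the mutant. It stood at 25.3 RPKM in PPL, 45.8 in SHR23, 28.9 in PEP45, 30.3 in WER13 and 27.5 in WER65. The level was 45.1 in iron-deficient and 11 in iron-sufficient wild type. Against iron-deficient wild type PYE fell in pye-1, PPL, PEP45 and WER65 (q between 0.0001 and 0.0178 in the authors' deposited table). It was not listed in SHR23 or WER13. Markers of 7 root or shoot tissues were read: root hair genes summed to 9.28 RPKM in pye-1, 54.0 in PPL, 12.9 in SHR23, 15.2 in PEP45, 12.5 in WER13, 46.4 in WER65, 74.5 in iron-deficient and 268 in iron-sufficient wild type (4 genes, all 4 below iron-deficient wild type in the mutant and each line). The 10 green-tissue markers summed to 65.1 RPKM in pye-1, 85.7 in PPL, 32.0 in SHR23, 216 in PEP45, 15.2 in WER13, 15.5 in WER65, 213 in iron-deficient and 273 in iron-sufficient wild type. All 10 were below iron-deficient wild type in pye-1, PPL, SHR23, WER13 and WER65, and 6 of 10 in PEP45, with 1 at 0 in WER65. The 3 endodermis markers summed to 49.8 RPKM in pye-1, 111 in PPL, 77 in SHR23, 66.1 in PEP45, 60.6 in WER13, 74.4 in WER65, 127 in iron-deficient and 352 in iron-sufficient wild type. All 3 were below iron-deficient wild type in pye-1, PPL, WER13 and WER65, and 2 of 3 in SHR23 and PEP45, where SCR was at 16.7 and 13.5 RPKM against 13.3 in iron-deficient wild type. The 2 phloem markers summed to 44.2 RPKM in pye-1, 66.1 in PPL, 42.1 in SHR23, 37.6 in PEP45, 25.7 in WER13, 33.9 in WER65, 75.1 in iron-deficient and 82.1 in iron-sufficient wild type; SUC2 was below iron-deficient wild type in the mutant and all 5 lines, while APL stayed between 9.71 and 14.0 RPKM. The 2 xylem markers summed to 89.9 RPKM in pye-1, 69.5 in PPL, 79 in SHR23, 98.5 in PEP45, 116 in WER13, 81.4 in WER65, 88.0 in iron-deficient and 198 in iron-sufficient wild type, with both above iron-deficient wild type in PEP45 and WER13. The 2 epidermis markers summed to between 7.09 and 11 RPKM in the 8 groups, and SHR, of the stele, stood between 12.1 and 16.8 RPKM. In such whole-root samples fewer cells of a type and less RNA per cell cannot be told apart, and the part of these markers in the results below was not tested.

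Most of the family was barely expressed in these roots. Of 49 members, 21 reached an RPKM of 1 in at least 1 group (5 CYP71A and 16 CYP71B genes), 23 stayed above 0 but under 1 in every group, and 5 (CYP71A18, CYP71B14, CYP71B21, CYP71B32 and CYP71B38) were listed at 0 throughout. Expression was concentrated in a few genes. CYP71B6 was the most abundant member in all 7 iron-deficient groups, at 19.3% to 31.7% of the summed RPKM of the family, and CYP71B7 was second in all 7. In iron-sufficient wild type CYP71B2 came first, at 24.8%. The family sum was 497 RPKM in pye-1, 492 in PPL, 402 in SHR23, 401 in PEP45, 328 in WER13, 376 in WER65, 525 in iron-deficient and 495 in iron-sufficient wild type.

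**Figure D1:**
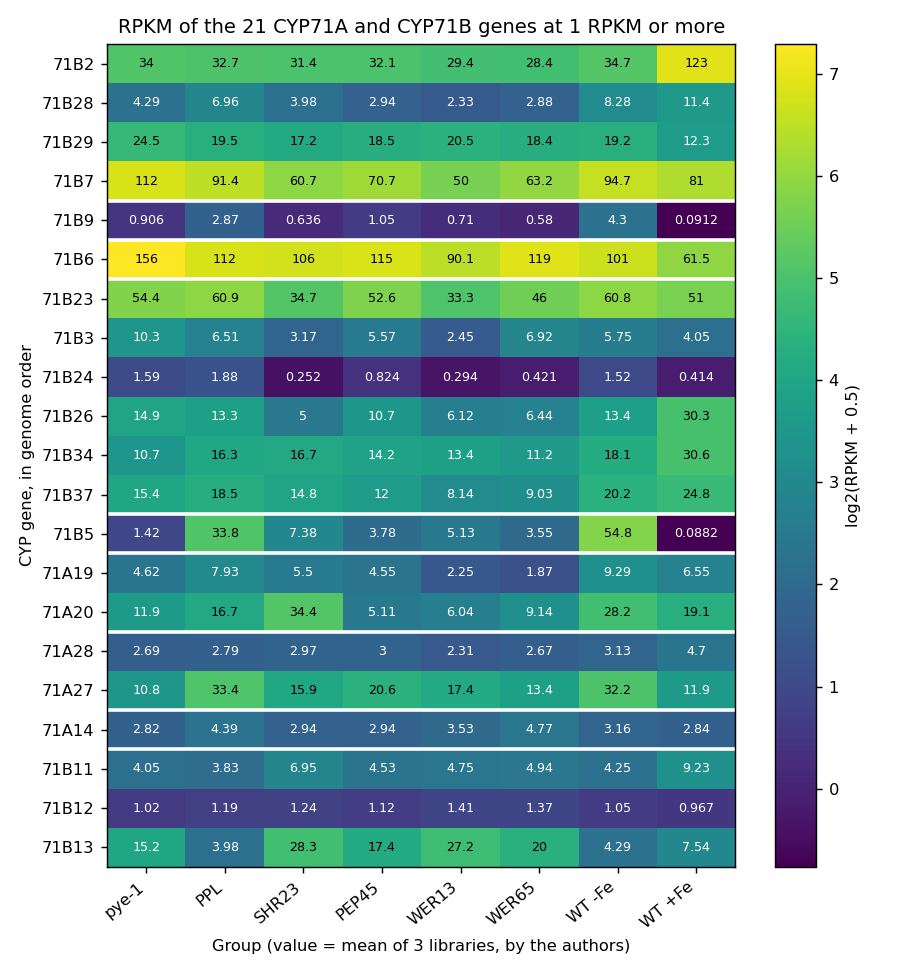
RPKM of the 21 genes that reached 1 RPKM in a group, in genome order (rows; white lines separate arrays) and in 8 groups (columns), coloured by log2(RPKM + 0.5) and printed as RPKM; each cell is the authors' mean, with no error. CYP71B5 stands at 54.8 RPKM in iron-deficient wild type and 33.8 in PPL and at 7.38 or less in the other 6 groups, and CYP71B2 is highest in iron-sufficient wild type.

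CYP71B5 showed the widest range of any member that was above 0 in every group. CYP71B5 (AT3G53280, chromosome 3, 19755689 to 19757613, plus strand, TAIR10.1) stood at 1.42 RPKM in pye-1, 33.8 in PPL, 7.38 in SHR23, 3.78 in PEP45, 5.13 in WER13, 3.55 in WER65, 54.8 in iron-deficient wild type and 0.0882 in iron-sufficient wild type. Wild type without iron and PPL were high, the mutant and the other 4 lines were low, and wild type with iron was close to 0. The gene rose in iron-deficient against iron-sufficient wild type by 6.55 on the log2(RPKM + 0.5) scale (q = 7.41e-06 in the authors' deposited table), a 621-fold ratio of RPKM whose lower value rests on about 7 reads. Against iron-deficient wild type the pye-1 level fell to 2.59% (q = 9.48e-06 in the authors' deposited table). Falls were also listed in SHR23 to 13.5%, in PEP45 to 6.89%, in WER13 to 9.36% and in WER65 to 6.49%, with q between 2.53e-06 and 6.22e-05 in the authors' deposited table. PPL, at 61.7% of iron-deficient wild type, was not listed. All these comparisons share the iron-deficient wild type. Without it, PPL was 23.8-fold above pye-1 by value, SHR23 5.21-fold, WER13 3.62-fold, PEP45 2.66-fold and WER65 2.51-fold, without a test.

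Other members near CYP71B5 stayed near 0. CYP71B30P, CYP71B31 and CYP71B32 lie within the same 9.58 kb of chromosome 3 as CYP71B5 and did not pass 0.0184 RPKM in any group. In coding sequence the closest member to CYP71B5 was CYP71B38, 85.7% identical and listed at 0 in every group.

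CYP71B9 and CYP71A27 were also high in iron-deficient wild type and PPL, with smaller differences. CYP71B9 (AT2G02580, chromosome 2, 701932 to 703798) stood at 0.906 RPKM in pye-1, 2.87 in PPL, 0.636 in SHR23, 1.05 in PEP45, 0.71 in WER13, 0.58 in WER65, 4.3 in iron-deficient wild type and 0.0912 in iron-sufficient wild type. CYP71A27 (AT4G20240, chromosome 4, 10931335 to 10934237, minus strand) stood at 10.8 RPKM in pye-1, 33.4 in PPL, 15.9 in SHR23, 20.6 in PEP45, 17.4 in WER13, 13.4 in WER65, 32.2 in iron-deficient wild type and 11.9 in iron-sufficient wild type. For both genes PPL and iron-deficient wild type were the 2 highest groups.

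CYP71B9 rose in wild type without iron by 3.02 on the log2(RPKM + 0.5) scale (q = 0.00244 in the authors' deposited table), again from about 7 reads with iron. It fell against iron-deficient wild type in pye-1, SHR23, PEP45, WER13 and WER65, with q between 0.0135 and 0.0485 in the authors' deposited table. CYP71A27 rose 2.71-fold in wild type without iron (q = 0.00168 in the authors' deposited table) and its pye-1 level fell to 33.5% of iron-deficient wild type (q = 0.000173 in the authors' deposited table). In the lines the falls were to 49.5% in SHR23, 64.0% in PEP45, 53.9% in WER13 and 41.7% in WER65, with q between 0.000114 and 0.00146 in the authors' deposited table. CYP71A28, which lies just beside CYP71A27 on the same strand, was between 2.31 and 4.7 RPKM and was listed in no comparison.

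CYP71B13 ran the other way. CYP71B13 (AT5G25140, chromosome 5, 8672316 to 8674749, plus strand) stood at 15.2 RPKM in pye-1, 3.98 in PPL, 28.3 in SHR23, 17.4 in PEP45, 27.2 in WER13, 20.0 in WER65, 4.29 in iron-deficient wild type and 7.54 in iron-sufficient wild type. The mutant and 4 lines lay above both wild-type groups, and PPL lay beside iron-deficient wild type. CYP71B13 fell in iron-deficient against iron-sufficient wild type, to 57.0% (q = 0.0022 in the authors' deposited table). It rose 3.55-fold in pye-1, 6.60-fold in SHR23, 4.05-fold in PEP45, 6.32-fold in WER13 and 4.66-fold in WER65 against iron-deficient wild type, with q between 7.99e-08 and 8.95e-05 in the authors' deposited table. By value it was 1.86-fold higher in SHR23 and 1.78-fold higher in WER13 than in pye-1, without a test. The rises all share the iron-deficient wild type as their control.

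**Figure D2:**
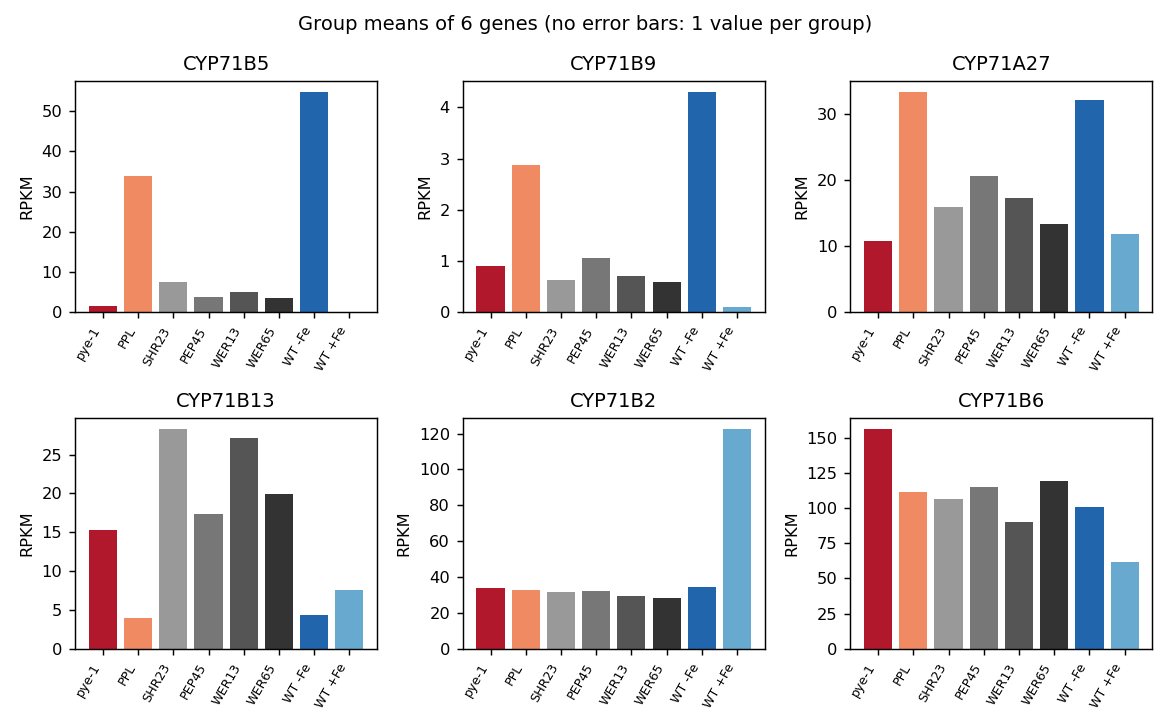
RPKM (vertical axes, from 0, a separate scale for each gene) of 6 genes in the 8 groups; each bar is the authors' mean and has no error bar. CYP71B5, CYP71B9 and CYP71A27 are high in PPL and iron-deficient wild type, CYP71B13 is low there, and CYP71B2 is high in iron-sufficient wild type.

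The sequences before the annotated start sites of CYP71B5, CYP71A27 and CYP71B13 are shown because they are the 3 members with the smallest q-values among the 4 listed in 6 of the 7 deposited comparisons. Each is the 250 bases upstream of the start, read from the RefSeq TAIR10.1 genome on the gene's own strand (chr3:19755439-19755688 plus, chr4:10934238-10934487 minus, chr5:8672066-8672315 plus). Capitals mark matches, on either strand, to any of 5 motifs: CACGTG (G-box), CANNTG (E-box, which includes every G-box), TTGACC and TTGACT (W-box forms) and TGACGT (an as-1-like core).
CYP71B5: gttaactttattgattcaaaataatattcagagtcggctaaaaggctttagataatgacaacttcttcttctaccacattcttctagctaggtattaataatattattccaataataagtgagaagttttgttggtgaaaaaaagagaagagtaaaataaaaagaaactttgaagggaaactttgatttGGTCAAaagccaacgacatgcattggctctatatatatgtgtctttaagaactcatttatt
CYP71A27: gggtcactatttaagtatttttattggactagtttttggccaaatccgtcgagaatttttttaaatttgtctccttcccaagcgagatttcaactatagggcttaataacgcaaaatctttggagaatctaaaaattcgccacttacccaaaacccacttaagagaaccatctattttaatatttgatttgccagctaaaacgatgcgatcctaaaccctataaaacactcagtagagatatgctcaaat
CYP71B13: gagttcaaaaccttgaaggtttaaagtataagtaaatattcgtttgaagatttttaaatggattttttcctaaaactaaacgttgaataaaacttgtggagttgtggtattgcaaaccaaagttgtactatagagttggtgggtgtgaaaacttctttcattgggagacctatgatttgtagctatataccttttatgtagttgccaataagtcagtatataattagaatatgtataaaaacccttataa
CYP71B5 held 1 match, the reverse complement of TTGACC, starting 61 bases before the annotated start. In CYP71A27 and CYP71B13 none of the 5 motifs was found in this window. Across the 21 members that reached 1 RPKM, 1 held CACGTG (4.76%, CYP71B2, 40 bases before its start), 9 held CANNTG (42.9%), 5 held TTGACC (23.8%), 9 held TTGACT (42.9%) and 2 held TGACGT (9.52%). In 26707 protein-coding genes the shares were 6.59%, 55.3%, 12.2%, 19.1% and 7.71% in the same order. A match is a string of letters in a window and was not measured as a binding site. Most of the window of CYP71B3 lies within CYP71B24, that of CYP71B34 within CYP71B35 and that of CYP71A28 within CYP71A27. Matches there may be neighbour gene sequence. The shares include these windows, and windows were not screened for neighbours in the members or in all genes.

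The 5 genes most like CYP71B5 outside the subfamilies were found by Pearson's r of log2(RPKM + 0.5) over the 8 group means, among genes that reached 5 RPKM. They were AT2G25735 (an uncharacterized protein, r = 0.993), AT1G28695 (a nucleotide-diphospho-sugar transferase family protein, r = 0.989), AT3G07720 (a kelch repeat protein, r = 0.989), ATARD2 (AT4G14710, an RmlC-like cupin, r = 0.988) and AT2G15840 (r = 0.987). AT3G07720, for example, stood at 302 RPKM in pye-1, 1086 in PPL and 1231 in iron-deficient wild type, against 169 in iron-sufficient wild type. Among members CYP71A27 was the most like CYP71B5 of those at 5 RPKM or more (r = 0.90). These are descriptions over 8 means that share libraries and depth.

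The first comparison asked which members responded to iron deficiency in wild type. By the authors' deposited table, 5 of 49 members rose (10.2%) and 5 fell (10.2%), where 6.13% of all genes rose and 7.01% fell. Beside CYP71B5, CYP71B9 and CYP71A27, the risen genes were CYP71B6 and CYP71B29. The fallen ones were CYP71B2, CYP71B26, CYP71B34, CYP71B11 and CYP71B13. Over the 21 members at 1 RPKM or more the median log2 difference was 0.22, against -0.01 over 19767 genes so kept, a description of the genes that passed.

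CYP71B2 had the largest fall among the 5 fallen members, by 1.81 on the log2(RPKM + 0.5) scale. CYP71B2 (AT1G13080, chromosome 1, 4459002 to 4460996) stood at 34.0 RPKM in pye-1, 32.7 in PPL, 31.4 in SHR23, 32.1 in PEP45, 29.4 in WER13, 28.4 in WER65 and 34.7 in iron-deficient wild type, against 123 in iron-sufficient wild type. All 7 iron-deficient groups lay between 28.4 and 34.7 RPKM, far under iron-sufficient wild type. It fell to 28.3% in iron-deficient wild type (q = 0.000624 in the authors' deposited table), and was listed in no other comparison. In the same array CYP71B29 (AT1G13100) stood at 24.5 RPKM in pye-1, 19.5 in PPL, 17.2 in SHR23, 18.5 in PEP45, 20.5 in WER13, 18.4 in WER65 and 19.2 in iron-deficient wild type, against 12.3 in iron-sufficient wild type. It rose 1.56-fold (q = 0.0324 in the authors' deposited table), so 2 members of the 5-gene array on chromosome 1 moved in opposite directions.

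CYP71B6, the indole-3-acetonitrile enzyme, rose without iron and again in pye-1. CYP71B6 (AT2G24180, chromosome 2, 10281718 to 10283735) stood at 156 RPKM in pye-1, 112 in PPL, 106 in SHR23, 115 in PEP45, 90.1 in WER13, 119 in WER65, 101 in iron-deficient and 61.5 in iron-sufficient wild type. It rose 1.64-fold without iron (q = 0.00162 in the authors' deposited table) and a further 1.55-fold in pye-1 against iron-deficient wild type (q = 0.000964 in the authors' deposited table). None of the 5 lines was listed for it. Its annotation overlaps AT2G24190 on the other strand by 115 bases, and the strand setting of the counting is not given.

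Setting pye-1 beside iron-deficient wild type asked what the mutant allele changed. By the authors' deposited table, 3 of 49 members rose (6.12%; 5.41% of all genes) and 5 fell (10.2%; 6.13% of all genes). CYP71B6, CYP71B3 and CYP71B13 rose, and CYP71B28, CYP71B9, CYP71B34, CYP71B5 and CYP71A27 fell. This comparison and the one of iron deficiency share the iron-deficient wild-type libraries. CYP71B34 (AT3G26300) stood at 10.7 RPKM in pye-1, 16.3 in PPL, 16.7 in SHR23, 14.2 in PEP45, 13.4 in WER13, 11.2 in WER65, 18.1 in iron-deficient and 30.6 in iron-sufficient wild type. It fell without iron (q = 0.001), fell further in pye-1 (q = 0.000684) and fell in WER65 (q = 0.000459 in the authors' deposited table).

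**Figure D3:**
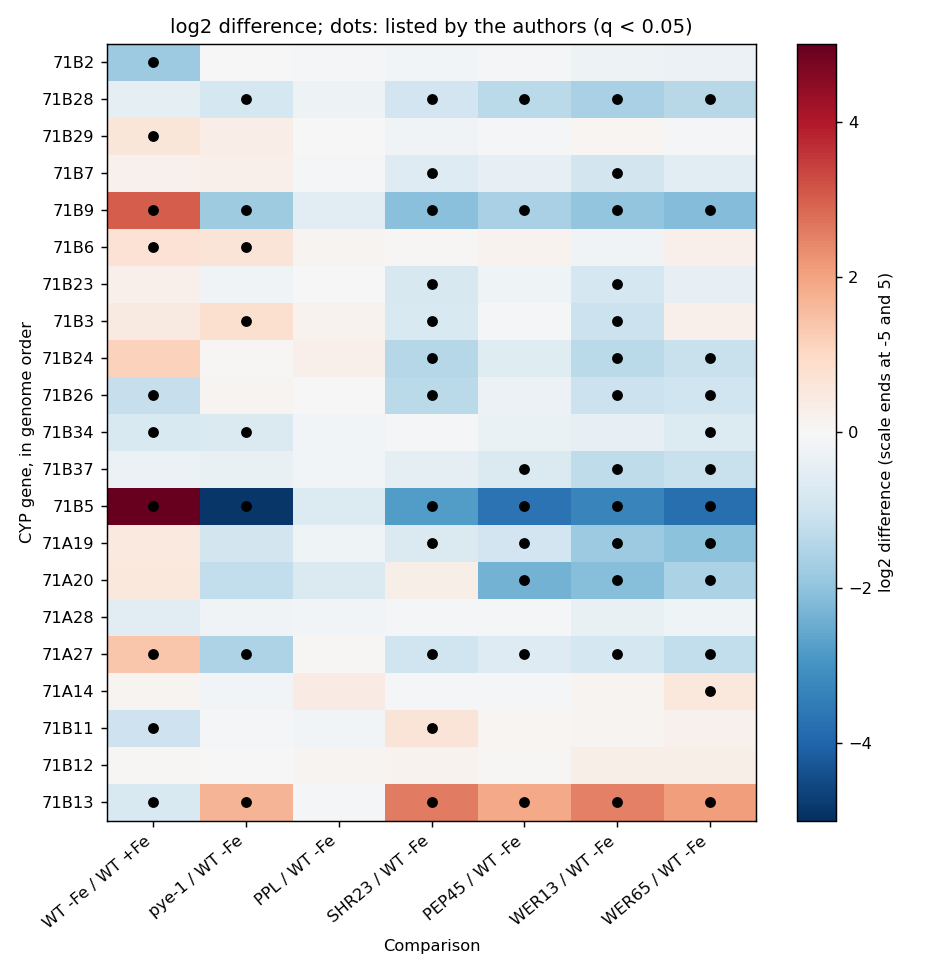
log2 difference (colour; log2(RPKM + 0.5), first-named group over second; colours end at -5 and 5) of the 21 members in genome order, for the 7 comparisons with an authors' table; black dots mark genes listed there. The PPL column has no dot, and CYP71B13 is higher by 1.71 to 2.59 in pye-1, SHR23, PEP45, WER13 and WER65.

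PPL, the line with the widest localization code, lay close to iron-deficient wild type. No member was listed in PPL, in a table that holds 3 genes (0.00893% of all genes, with 0.00298% higher and 0.00595% lower), and that table holds no gene at or over a q of 0.05, so no count at an unadjusted p can be given. PYE itself was among these 3 genes and fell in PPL (q = 0.0178 in the authors' deposited table). The median log2 difference of the 21 members was -0.09, against -0.01 over all kept genes. Of the 8 members listed in pye-1, CYP71B5 at 61.7% and CYP71B9 at 66.8% of iron-deficient wild type were the farthest from it in PPL. The other 6 were between 84.1% and 113% of iron-deficient wild type by value. Set against pye-1 directly, 3 of the 21 members were at least 2-fold higher in PPL (14.3%, against 3.72% of kept genes) and 1 was at least 2-fold lower (4.76%, against 2.93%), without a test. These were CYP71B5, CYP71B9 and CYP71A27, higher, and CYP71B13, lower.

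**Figure D4:**
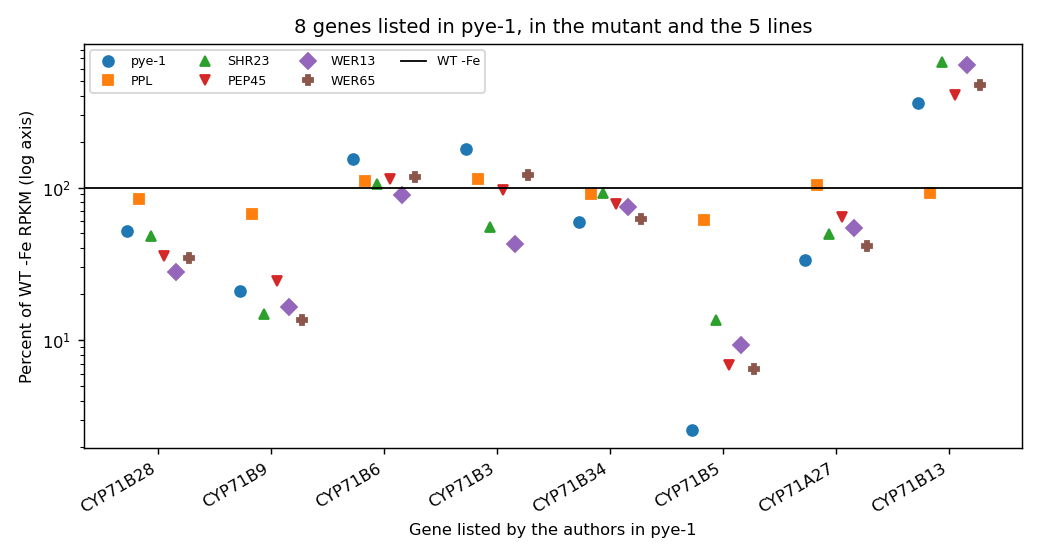
RPKM as a percentage of iron-deficient wild type (log axis; line at 100) for the 8 genes listed by the authors in pye-1, in the mutant and the 5 lines; each point is a ratio of 2 group means with no error. PPL lies nearest to the line for CYP71B28, CYP71B9, CYP71B5, CYP71A27 and CYP71B13, but not for CYP71B6, CYP71B3 or CYP71B34. SHR23 and WER13 lie below the line for CYP71B3, where pye-1 lies above it.

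The remaining 4 lines held more members that fell than rose. In SHR23 2 of 49 members rose (4.08%; 4.62% of all genes) and 11 fell (22.4%; 6.38% of all genes) by the authors' deposited table. In PEP45 1 rose (2.04%; 5.14%) and 7 fell (14.3%; 5.81%). In WER13 1 rose (2.04%; 5.48%) and 14 fell (28.6%; 8.49%), and in WER65 2 rose (4.08%; 4.77%) and 11 fell (22.4%; 6.89%). CYP71B13 was among the risen in each, with CYP71B11 in SHR23 and CYP71A14 in WER65. CYP71B5, CYP71B9, CYP71A27 and CYP71B28 were among the fallen in each. All 4 comparisons share the iron-deficient wild-type libraries, so their lists are not independent. The median log2 difference of the 21 members was -0.44 in SHR23, -0.31 in PEP45, -0.87 in WER13 and -0.58 in WER65, where that of all kept genes was 0.00 to 2 decimals.

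CYP71B28 (AT1G13090), of the chromosome 1 array, stood at 4.29 RPKM in pye-1, 6.96 in PPL, 3.98 in SHR23, 2.94 in PEP45, 2.33 in WER13, 2.88 in WER65, 8.28 in iron-deficient and 11.4 in iron-sufficient wild type. It fell in pye-1 (q = 0.000964) and in SHR23, PEP45, WER13 and WER65 (q between 8.52e-06 and 9.39e-05 in the authors' deposited table).

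CYP71A19 and CYP71A20, a pair on chromosome 4, differed in SHR23 by value, and the genes were not tested against each other. CYP71A20 (AT4G13310, chromosome 4, 7750305 to 7753210) stood at 11.9 RPKM in pye-1, 16.7 in PPL, 34.4 in SHR23, 5.11 in PEP45, 6.04 in WER13, 9.14 in WER65, 28.2 in iron-deficient and 19.1 in iron-sufficient wild type. CYP71A19 (AT4G13290, chromosome 4, 7740283 to 7743135) stood at 4.62 RPKM in pye-1, 7.93 in PPL, 5.5 in SHR23, 4.55 in PEP45, 2.25 in WER13, 1.87 in WER65, 9.29 in iron-deficient and 6.55 in iron-sufficient wild type. SHR23 was the highest group for CYP71A20 and stood under both wild-type groups for CYP71A19. CYP71A20 fell in PEP45 to 18.1%, in WER13 to 21.4% and in WER65 to 32.4% (q = 0.00675, 0.00576 and 0.0126 in the authors' deposited table), and was not listed in SHR23, at 122%, or in pye-1, at 42.1%. CYP71A19 fell in SHR23, PEP45, WER13 and WER65 (q between 4.91e-05 and 0.0469 in the authors' deposited table). Their coding sequences are 90.7% identical, so reads may have been split between them, and CYP71A19 overlaps a terpene synthase gene on the other strand by 265 bases.

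The largest array lies on chromosome 3, where 18 CYP71B genes stand within 83 kb (9565627 to 9648658). Only 6 of them reached 1 RPKM: CYP71B23, CYP71B3, CYP71B24, CYP71B26, CYP71B34 and CYP71B37. Expressed genes stand between near-silent ones, with CYP71B35 and CYP71B36, at most 0.173 RPKM, standing between CYP71B34 and CYP71B37. All 6 fell in at least 1 line.

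CYP71B23 (AT3G26210) stood at 54.4 RPKM in pye-1, 60.9 in PPL, 34.7 in SHR23, 52.6 in PEP45, 33.3 in WER13, 46.0 in WER65, 60.8 in iron-deficient and 51.0 in iron-sufficient wild type. CYP71B3 (AT3G26220) stood at 10.3 RPKM in pye-1, 6.51 in PPL, 3.17 in SHR23, 5.57 in PEP45, 2.45 in WER13, 6.92 in WER65, 5.75 in iron-deficient and 4.05 in iron-sufficient wild type. Both were lowest in WER13 and SHR23. CYP71B23 fell in these 2 lines (q = 0.00012 in SHR23 and 0.000201 in WER13 in the authors' deposited table). CYP71B3 rose in pye-1 (q = 0.0131) and fell in SHR23 (q = 0.0338) and WER13 (q = 0.0369 in the authors' deposited table), and was 3.24-fold and 4.20-fold lower in SHR23 and WER13 than in pye-1 by value, a difference not tested. CYP71B24 (AT3G26230), which lies just beside CYP71B3, was at 0.252 RPKM in SHR23, 0.294 in WER13 and 0.421 in WER65, against 1.52 in iron-deficient wild type, and fell in these 3 lines (q between 0.000902 and 0.0111 in the authors' deposited table). Those line values rest on about 24, 25 and 38 reads. CYP71B24 was also low in iron-sufficient wild type, at 0.414 RPKM, and stood at 1.59 in pye-1, 1.88 in PPL and 0.824 in PEP45. It was listed in no other comparison. Its coding sequence is 87.3% identical to that of CYP71B3, so reads may have been split between them.

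CYP71B26 (AT3G26290) stood at 14.9 RPKM in pye-1, 13.3 in PPL, 5.0 in SHR23, 10.7 in PEP45, 6.12 in WER13, 6.44 in WER65, 13.4 in iron-deficient and 30.3 in iron-sufficient wild type. CYP71B37 (AT3G26330) stood at 15.4 RPKM in pye-1, 18.5 in PPL, 14.8 in SHR23, 12 in PEP45, 8.14 in WER13, 9.03 in WER65, 20.2 in iron-deficient and 24.8 in iron-sufficient wild type. Both were highest with iron. CYP71B26 fell without iron (q = 0.00578) and in SHR23 (q = 0.00471), WER13 (q = 0.0101) and WER65 (q = 0.00804 in the authors' deposited table). CYP71B37 fell in PEP45, WER13 and WER65 (q between 6.36e-05 and 0.0034 in the authors' deposited table) but was not listed without iron.

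**Figure D5:**
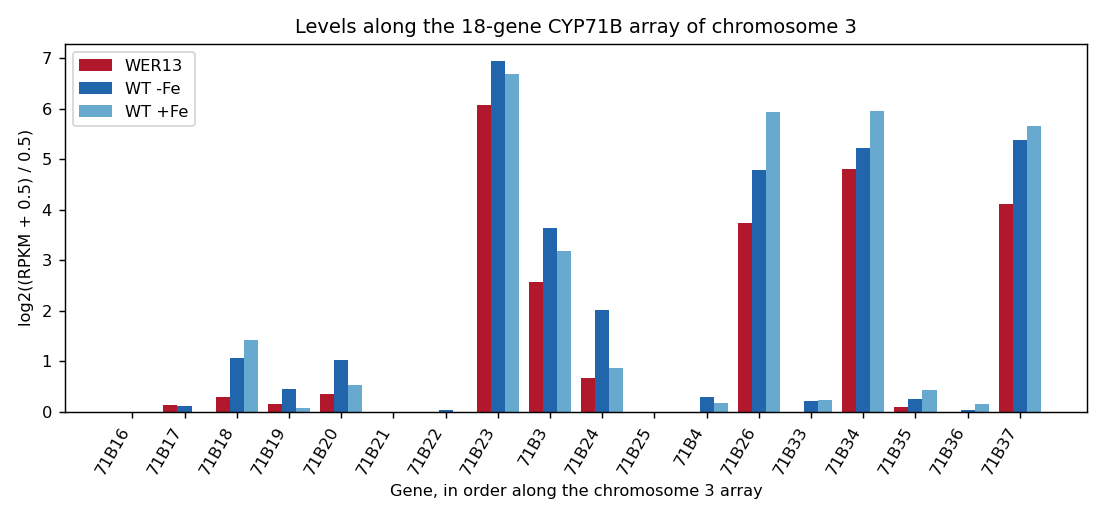
log2((RPKM + 0.5) / 0.5) of the 18 CYP71B genes of the chromosome 3 array, in their order along the chromosome, in WER13 (red), iron-deficient wild type (dark blue) and iron-sufficient wild type (light blue); bars start at 0, which is 0 RPKM, and are authors' means with no error. Genes that reached 1 RPKM stand between genes that stayed under 1 RPKM in every group. The WER13 bar is the lowest of the 3 in each of the 6 genes that reached 1 RPKM.

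The second most abundant member in every group, CYP71B7 (AT1G13110), de-ethylates 7-ethoxycoumarin in vitro. It stood at 112 RPKM in pye-1, 91.4 in PPL, 60.7 in SHR23, 70.7 in PEP45, 50.0 in WER13, 63.2 in WER65, 94.7 in iron-deficient and 81 in iron-sufficient wild type. It fell in SHR23 (q = 0.00851) and WER13 (q = 0.000577 in the authors' deposited table). CYP71B11 (AT5G25120), in the same array as CYP71B13, stood at 4.05 RPKM in pye-1, 3.83 in PPL, 6.95 in SHR23, 4.53 in PEP45, 4.75 in WER13, 4.94 in WER65, 4.25 in iron-deficient and 9.23 in iron-sufficient wild type. It fell without iron (q = 0.00155) and rose in SHR23 (q = 0.00421 in the authors' deposited table), and its coding sequence is 92.6% identical to that of CYP71B12, which stayed between 0.967 and 1.41 RPKM and was never listed. CYP71A14 (AT5G24960) rose 1.51-fold in WER65, to 4.77 RPKM against 3.16 in iron-deficient wild type (q = 0.0311 in the authors' deposited table).

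The lines were also set against pye-1, counting members at least 2-fold apart without a test. SHR23 had 2 of 21 members higher (9.52%, against 2.26% of kept genes) and 3 lower (14.3%, against 1.74%). PEP45 had 1 higher (4.76%, against 1.02%) and 1 lower (4.76%, against 0.273%). WER13 had 1 higher (4.76%, against 0.809%) and 4 lower (19%, against 1.92%), and WER65 had 1 higher (4.76%, against 1.13%) and 3 lower (14.3%, against 1.07%). CYP71B5 was the higher one in each of the 4, joined by CYP71A20 in SHR23. CYP71B26 and CYP71B24 were among the lower ones in SHR23, WER13 and WER65.

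Other P450 genes were read beside the family. Of 197 genes named as P450s outside CYP71A and CYP71B, 29 rose (14.7%) and 38 fell (19.3%) without iron in wild type, and 21 rose (10.7%) and 29 fell (14.7%) in pye-1, in the authors' deposited table. In WER13 20 rose (10.2%) and 51 fell (25.9%), beside falls in 28.6% of CYP71A and CYP71B genes. These shares count unexpressed genes, and 122 of the 197 reached 1 RPKM against 21 of 49 members. Among genes so kept, the median log2 difference in WER13 was -0.33 for other P450 genes and -0.87 for members. It was -0.04 against -0.44 in SHR23, -0.32 against -0.31 in PEP45 and -0.29 against -0.58 in WER65, without a test. In SHR23 23 rose (11.7%) and 26 fell (13.2%), in PEP45 19 rose (9.64%) and 36 fell (18.3%), in WER65 18 rose (9.14%) and 37 fell (18.8%), and in PPL none was listed. Within them, 107 genes of the remaining CYP71 clan had 16 rises (15%) and 21 falls (19.6%) without iron, where 6.13% of all genes rose and 7.01% fell. In pye-1 8 rose (7.48%; 5.41% of all genes) and 16 fell (15%; 6.13%), and in SHR23 11 rose (10.3%; 4.62%) and 13 fell (12.1%; 6.38%). In PEP45 6 rose (5.61%; 5.14%) and 23 fell (21.5%; 5.81%), in WER13 6 rose (5.61%; 5.48%) and 30 fell (28%; 8.49%), and in WER65 7 rose (6.54%; 4.77%) and 23 fell (21.5%; 6.89%). Among the 64 clan genes that reached 1 RPKM the median log2 difference was -0.09 in SHR23, -0.40 in PEP45, -0.54 in WER13 and -0.33 in WER65. In PEP45 this was lower than the members' -0.31, and in the other lines named it was nearer to 0. The differences between these shares and between these medians were not tested.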

How the data were processed

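Poly(A)-selected, directional libraries were made from razor-cut roots, per the labels' protocols. The submitters' processing notes name FastQC, TopHat2, edgeR and TAIR10 without versions or roles; how reads were counted, on which strand and over which gene lengths is not given in the sources used here. Per-gene RPKM values were deposited by the authors as 1 value per group for 33602 genes. The q-values are those of 7 comparison tables deposited by the authors, whose test is not stated; the table headed PYE was matched to PPL by its values. RPKM printed in these tables matched the table of all genes within 0.1% in all 194280 values compared. With 1 value per group no test could be fitted, so the authors' q-values are the only test.

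Log2 differences use log2(RPKM + 0.5), and genes at 1 RPKM or more in at least 1 group were kept. Reads behind a value were approximated from RPKM, annotated exon length and library size, the latter from steps between low values of single-exon genes. Arrays join members less than 50 kb apart. Coding sequences were aligned with Biopython 1.88, and coordinates, promoters and sequences come from RefSeq's TAIR10.1. The library steps were tested on simulated data. For the log2 differences a planted shift was read back with the same formula, which checks the arithmetic only. Named genes were all members at 1 RPKM or more, with values in 8 groups for those at 5 RPKM or more and listed. CYP71B9, below 5 RPKM but listed in 6 comparisons, and CYP71B24, below 5 RPKM but listed in 3, were given the same values. CYP71B18 and CYP71B20, below 1 RPKM, were named for being listed. These choices were made after the values were seen. The members and gene lists were chosen with earlier results of these data known.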

Additional observations from a re-analysis of the deposited data

How the results depend on the processing

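A pseudocount of 0.1 or 1 changes the size of a difference but cannot change its direction. Setting the median of all kept genes to 0 moved no comparison by more than 0.0079 on the log2 scale. The smallest of the 63 listed differences of members at 1 RPKM or more was 0.526 (CYP71A14 in WER65). All 63 were therefore bound to keep their direction, which says nothing about their reliability. Counting only listed members at least 2-fold apart left 6 of 10 for iron deficiency in wild type and 4 of 8 in pye-1. It left 5 of 13 in SHR23, 5 of 8 in PEP45, 10 of 15 in WER13 and 9 of 13 in WER65. The same share over all listed genes was not computed, so these losses cannot be called particular to the members. No replicate spread exists, so a median was called moved at 0.1 on the log2 scale or more. With no filter on low values the members' median was 0 for iron deficiency, for pye-1 and WER65 against iron-deficient wild type, and for PPL and WER65 against pye-1; it was -0.0314 in SHR23, PEP45 and WER13 and -0.0232 in WER13 against pye-1, since most members are near 0 RPKM. With members at 5 RPKM or more it was 0.0518 in PPL, -0.21 in PEP45 and -0.73 in WER13 against pye-1. Without members at least 90% identical in coding sequence, an alternative chosen after seeing the data in place of protein identity, it was -0.64 in SHR23 against iron-deficient wild type. The other 59 of 72 medians moved less. Leaving out a replicate was not run, since each group is 1 mean. No paired analysis was possible because the deposited values are not given per library. CYP71B5 and CYP71B9 rest on about 7 reads each in iron-sufficient wild type, so the size of their rise is imprecise.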

Other observations

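A list of 8 genes for possible redox partners of P450 enzymes held P450 reductases, cytochrome b5 proteins and a cytochrome b5 reductase. Whether each serves a P450 enzyme in these roots was not tested. Of the 8, 4 rose (50%, where 6.13% of all genes rose) and 1 fell (12.5%, where 7.01% of all genes fell) in iron-deficient against iron-sufficient wild type in the authors' deposited table. The risen genes were the P450 reductase gene ATR2 at 160 against 70.0 RPKM, the cytochrome b5 genes CYTB5-B at 185 against 54.6 and CYTB5-E at 566 against 360.0, and the cytochrome b5 reductase gene CBR1 at 199 against 122. The other P450 reductase gene, ATR1, at 154 against 168 RPKM, was not listed. CYTB5-C fell without iron, to 5.81 against 9.56 RPKM (q = 0.00714 in the authors' deposited table), and rose in pye-1 (30.6), SHR23 (34.7), PEP45 (16.1), WER13 (11.4) and WER65 (16.4), with q between 5.11e-07 and 0.000828 in the authors' deposited table. ATR2 fell in pye-1, to 99.4 RPKM (q = 0.000118), and CYTB5-D fell in pye-1, PEP45, WER13 and WER65 (q between 6.95e-05 and 0.00108 in the authors' deposited table).

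TPS12 and TPS13 lie beside CYP71A19 and CYP71A20 on chromosome 4 and encode terpene synthases, genes chosen here for their position. TPS13 (AT4G13300, between the pair) stood at 4.13 RPKM in pye-1, 11.9 in PPL, 14.4 in SHR23, 2.31 in PEP45, 2.39 in WER13, 3.31 in WER65, 24 in iron-deficient and 8.39 in iron-sufficient wild type. It rose without iron and fell in pye-1, PEP45, WER13 and WER65 (q between 0.00392 and 0.0388 in the authors' deposited table). TPS12 (AT4G13280) fell in SHR23, PEP45, WER13 and WER65 (q between 0.000454 and 0.0419 in the authors' deposited table), the same 4 lines as CYP71A19.

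Among the 28 members that stayed under 1 RPKM, 2 were still listed, and they are named after their values were seen. CYP71B18, annotated as a transcribed pseudogene, stood at 0.094 RPKM in SHR23, 0.108 in WER13 and 0.0295 in WER65, against 0.549 in iron-deficient wild type, and fell in all 3 lines (q between 0.00348 and 0.0161 in the authors' deposited table), on about 9, 9, 3 and 56 reads. CYP71B20 fell in WER13, to 0.136 against 0.512 RPKM (q = 0.0109 in the authors' deposited table), and its coding sequence is 96.2% identical to that of CYP71B19. All 6 CYP71A genes of the other chromosome 3 array, CYP71A21 to CYP71A26, stayed at 0.346 RPKM or less.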
